A study of Mus musculus with 28 samples.

Results

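The genes described here are the 6 mouse Cyp4a genes Cyp4a10, Cyp4a14, Cyp4a31, Cyp4a32, Cyp4a12a and Cyp4a12b, chosen by symbol from the gene table of a liver RNA-seq study. They are 6 of the 49585 genes in the table and 6 of the 32072 with a count above 0 in at least 1 library. All 6 passed the filter on low counts. The study asked how extra SIRT6, a protein deacylase of the sirtuin family, changes the liver of mice of both sexes. Livers came from C57BL/6JOlaHsd mice aged 5 to 7 months by their labels, which were either wild type (WT) or carried a Sirt6 transgene (SIRT6-tg). Each sex and genotype formed a group of 7 mice, 4 groups in all, with 1 library per mouse. All groups ate the same standard chow and were fasted for a few hours in the morning before collection. The SIRT6-tg mice descend from 1 transgenic line backcrossed to the strain and carry the transgene in the whole animal, so 1 insertion stands for the genotype, and the promoter of the transgene is not given in the sources used here.

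CYP4A enzymes are cytochrome P450 proteins of the endoplasmic reticulum that hydroxylate the terminal (omega) carbon of fatty acids. Alcohol and aldehyde dehydrogenases turn the omega-hydroxy acids into dicarboxylic acids, which peroxisomes then shorten. In mouse liver Cyp4a10 and Cyp4a14 are classic targets of the nuclear receptor PPARα, with Cyp4a14 known to be higher in females, whereas Cyp4a12a encodes a male-biased hydroxylase of arachidonic acid that depends on androgens and the growth hormone pattern.

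The 6 genes form a cluster on chromosome 4 (GRCm38, the same build as mm10), and all are annotated as protein coding. Cyp4a12a (ENSMUSG00000066071.6, chr4:115299046-115332815) and Cyp4a12b (ENSMUSG00000078597.2, chr4:115411624-115439034) lie on the plus strand. Cyp4a14 (ENSMUSG00000028715.2, chr4:115486200-115496142) is the only member on the minus strand. Cyp4a10 (ENSMUSG00000066072.13, chr4:115518264-115533649), Cyp4a31 (ENSMUSG00000028712.12, chr4:115563649-115579015) and Cyp4a32 (ENSMUSG00000063929.6, chr4:115600969-115621602) follow on the plus strand. The first 60 coding bases are shown because the near-identity of some members limits how their reads can be assigned. They are read 5′ to 3′ from the Gencode vM21 transcripts, with capitals at bases that differ from Cyp4a10, and for Cyp4a10 at bases that differ from Cyp4a31.
Cyp4a10: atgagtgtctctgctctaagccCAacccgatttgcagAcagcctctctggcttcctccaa
Cyp4a31: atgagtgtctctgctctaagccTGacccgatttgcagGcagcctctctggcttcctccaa
Cyp4a32: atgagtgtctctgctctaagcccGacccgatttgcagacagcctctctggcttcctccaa
Cyp4a14: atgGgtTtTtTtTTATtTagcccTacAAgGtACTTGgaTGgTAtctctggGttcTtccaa

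Over these 60 bases Cyp4a32 differed from Cyp4a10 at 1 base, Cyp4a31 at 3 and Cyp4a14 at 24. Cyp4a12a and Cyp4a12b were identical over their first 60 coding bases and differed at 23 of 1524 coding bases in all. A stretch of the same length, from coding base 625 to 684, holds 4 of those differences, which are in capitals.
Cyp4a12a: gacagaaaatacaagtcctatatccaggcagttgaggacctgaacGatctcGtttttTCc
Cyp4a12b: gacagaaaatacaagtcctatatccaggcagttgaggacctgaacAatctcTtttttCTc

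Over the whole coding sequence Cyp4a10 shared 96.6% of bases with Cyp4a31 and 97.2% with Cyp4a32, and Cyp4a12a shared 98.5% with Cyp4a12b. Cyp4a14 stood apart, with 76.0% to 77.6% identity to the other members. Stretches of 50 bases were taken from the longest coding transcript of each member. Those also found in another gene were 30.5% in Cyp4a10, 21.8% in Cyp4a31, 46.8% in Cyp4a32, 48.9% in Cyp4a12a and 49.4% in Cyp4a12b. In Cyp4a14 they were 0.245%. For stretches of 100 bases the shares were 12.7%, 8.22%, 20.1%, 35.8% and 36.2% in the same order. Since only uniquely mapped reads were counted, reads wholly within such shared stretches could be lost. How many were lost depends on the read length, which is not given in the sources used here. The levels of all members other than Cyp4a14 are uncertain to that extent. Counts that move together in Cyp4a10, Cyp4a31 and Cyp4a32, or in Cyp4a12a and Cyp4a12b, may hold misassigned reads, which was not tested.

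Total counts per library lay between 18758863 and 35393069. In CPM, the unit of counts relative to library size, 1 count thus corresponded to 0.0283 to 0.0533 before scaling. All other CPM values are scaled here by trimmed means of M-values (TMM), which shifts these limits somewhat. Sirt6 was measured at 1.69 to 3.24 CPM in male WT and 198 to 358 CPM in male SIRT6-tg mice, and at 1.81 to 6.21 CPM in female WT and 16.4 to 50.2 CPM in female SIRT6-tg mice. These counts sum the endogenous gene and any transgene reads. The rise in log2 Sirt6 was 6.68 in males and 3.39 in females (edgeR's quasi-likelihood test, adjusted p = 1.78e-15 and 3.32e-09), and the difference of 3.29 passed the test too (SE 0.35, adjusted p = 6.96e-06). Transcripts of 15 hepatocyte markers made up 14.2% to 21.7% of counts, and none of them was at 0 in every library. Kidney proximal tubule is another site of Cyp4a expression. Of its 5 markers only Lrp2 passed the filter on low counts, at no more than 1.5 CPM in any library.

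A pair of libraries stood apart in the Cyp4a genes, and the results that rest on them are given with and without them. The library male WT 5 was the highest of its group in Cyp4a10, Cyp4a14, Cyp4a31 and Cyp4a32. It was also highest in 11 of 26 other PPARα target genes (42.3%) and 8 of 14 genes of peroxisomal chain shortening (57.1%), compared with 17.1% of all expressed genes. It was lowest in 8 of 9 T cell markers, compared with 25.0% of all genes. The library female WT 3 was highest of its group in Cyp4a12a and Cyp4a12b and in 7 of 12 other male-biased liver genes, compared with 13.8% of all genes, and lowest in 10 of 14 female-biased genes, compared with 15.3%.

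In WT livers the family split by sex (CPM by library in 6 panels shows all values). Male WT mice had 53.3, 94.9 and 413 CPM of Cyp4a10 as the lowest, median and highest of 7 libraries, and female WT mice 300.1, 508 and 1020.2 CPM. All males except male WT 5 lay below every female. Cyp4a14 was measured at 31.7, 50.9 and 551 CPM in male WT and at 568, 999 and 2241 CPM in female WT mice, with no overlap. Cyp4a12a went the other way, with 106, 119 and 192 CPM in male WT and 0.0842, 0.417 and 17.5 CPM in female WT mice. Cyp4a12b did likewise, with 34.1, 45.3 and 60.4 CPM in male WT and 0, 0.0421 and 2.05 CPM in female WT mice. Neither gene overlapped between the sexes.

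**Figure D1:**
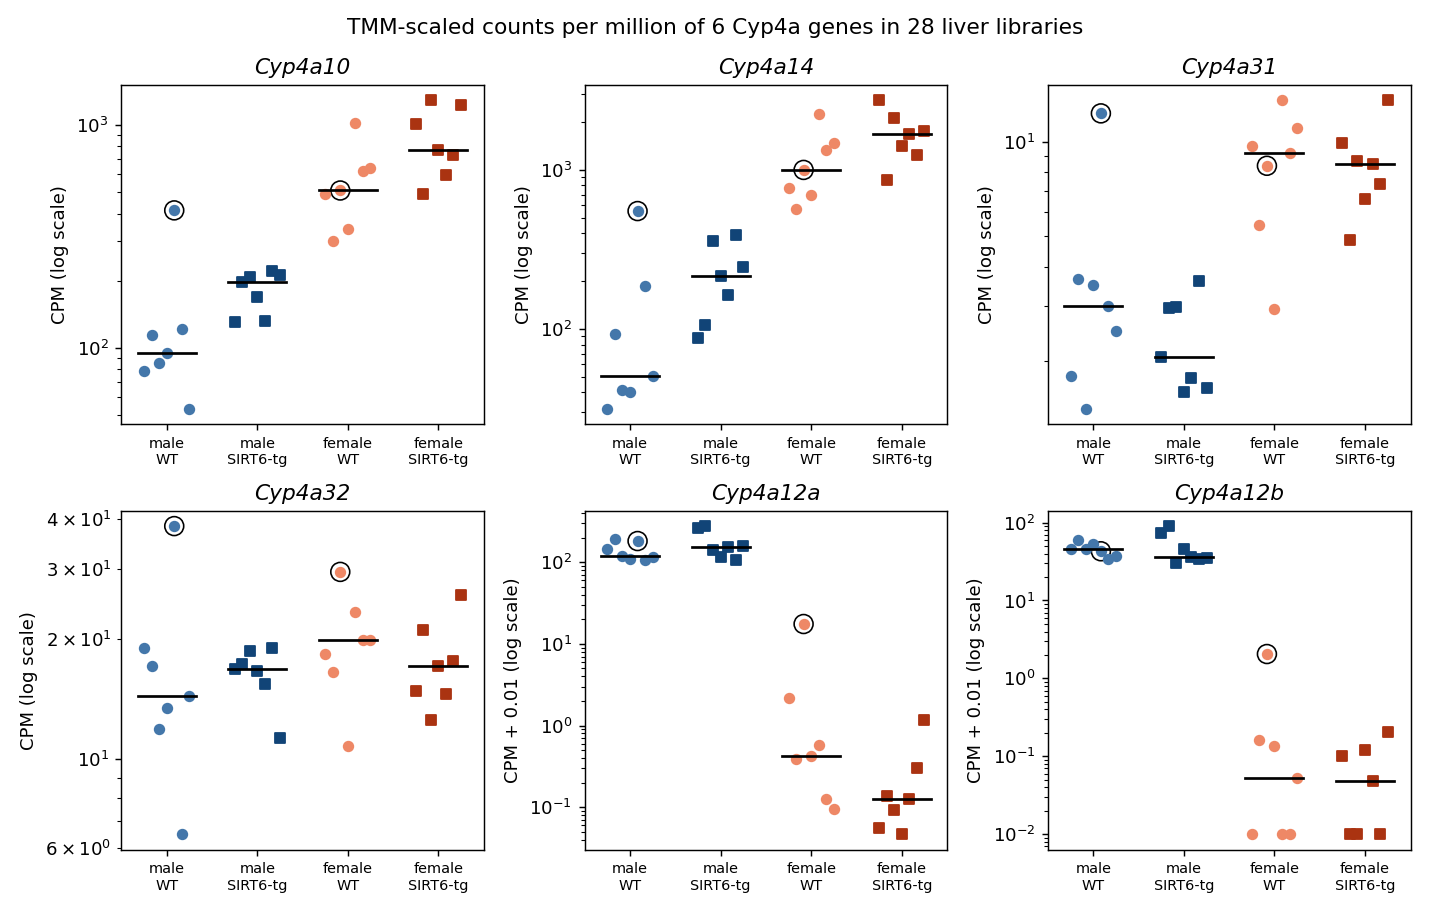
CPM (log scale; 0.01 CPM added in the panels of Cyp4a12a and Cyp4a12b) of each Cyp4a gene in the 28 libraries, with 1 point per mouse and a black line at the group median; circles are WT, squares SIRT6-tg, and open rings mark male WT 5 and female WT 3. The female points lie above most male points for Cyp4a10 and Cyp4a14 and below all of them for Cyp4a12a and Cyp4a12b.

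Of the 6 genes, 5 differed between WT males and females, 3 lower in males (Cyp4a10, Cyp4a14 and Cyp4a31) and 2 higher (Cyp4a12a and Cyp4a12b), whereas 12.4% of the 21583 genes tested did (6.66% higher and 5.71% lower in males). Of the higher and lower calls, 53.8% were higher in males with TMM, 86.8% with total counts alone as the scale and 97.6% with hepatocyte markers as the scale, since these scales moved the median log2 difference of all genes from 0.00 to 0.19 and 0.51. The calls on Cyp4a10, Cyp4a14, Cyp4a12a and Cyp4a12b held on each of these scales, and that on Cyp4a31 was lost with total counts (adjusted p = 0.0593) and with hepatocyte markers (0.109). Cyp4a10 was 4.08-fold lower in males (log2 difference -2.03, SE 0.35, adjusted p = 0.000254) and Cyp4a14 was 8.14-fold lower (-3.02, SE 0.56, adjusted p = 0.000525). Cyp4a12a was 43.8-fold higher (5.45, SE 0.77, adjusted p = 1.85e-05) and Cyp4a12b 116-fold higher (6.86, SE 0.58, adjusted p = 3.36e-09). Ranges of the groups did not overlap for 3 of the 6 genes, compared with 2.96% of all genes tested. Leaving out male WT 5, where 13.8% of all genes tested were called, moved the log2 difference to -2.62 for Cyp4a10 and -3.97 for Cyp4a14. Leaving out female WT 3 moved it to 7.80 for Cyp4a12a and 9.60 for Cyp4a12b.

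Cyp4a31 and Cyp4a32, the close relatives of Cyp4a10, were far lower in CPM. Cyp4a31 was measured at 1.41, 2.99 and 12.3 CPM in male WT and 2.92, 9.23 and 13.6 CPM in female WT mice, which overlapped. It was 2.19-fold lower in males (log2 difference -1.13, SE 0.36, adjusted p = 0.0391). The call passed in 17 of the 28 fits that leave out 1 library, with adjusted p from 0.000131 (without male WT 5, difference -1.71) to 0.106, and was lost without female WT 3 (-1.14, adjusted p = 0.0554). Cyp4a32 lay at 6.49 to 38.3 CPM in male WT and 10.8 to 29.4 CPM in female WT mice, with a log2 difference of -0.20 that did not pass the test (SE 0.25, 95% interval -0.71 to 0.30, adjusted p = 0.678).

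In SIRT6-tg livers the same 5 genes differed between the sexes, compared with 23.1% of all genes tested (12.9% higher and 10.2% lower in males). Of those calls 55.9% were higher in males with TMM, 39% with total counts, 39.2% with upper-quartile scaling and 68.4% with hepatocyte markers. Cyp4a10 was 4.83-fold lower in males (log2 difference -2.27, SE 0.36, adjusted p = 4.31e-05), Cyp4a14 7.52-fold lower (-2.91, SE 0.56, adjusted p = 0.000469) and Cyp4a31 3.58-fold lower (-1.84, SE 0.38, adjusted p = 0.000847). Cyp4a12a was 642-fold higher (9.33, SE 0.98, adjusted p = 1.21e-07) and Cyp4a12b 740-fold higher (9.53, SE 0.73, adjusted p = 2.41e-10). The groups did not overlap in these 5 genes, compared with 6.13% of all genes tested. The size of the last 2 folds rests on few female reads. Female SIRT6-tg libraries 1 to 7 held 1, 4, 2, 1, 3, 6 and 30 counts of Cyp4a12a, and 2, 0, 0, 3, 1, 0 and 5 counts of Cyp4a12b. A library with 0 counts allows up to 3 counts at 95% confidence, for counting error only. Sirt6 itself averaged 281 CPM in male and 30.2 CPM in female SIRT6-tg mice. Sex and Sirt6 level thus differ together in this comparison and cannot be told apart.

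Per kilobase of exon (RPKM), the order of the members differed between the sexes. In male WT mice the medians were 49 RPKM for Cyp4a12a, 45.0 for Cyp4a10, 19.6 for Cyp4a14, 18.9 for Cyp4a12b, 9.35 for Cyp4a32 and 1.19 for Cyp4a31, and every neighbour in this order overlapped the next. In male SIRT6-tg mice Cyp4a10 came first (93.8 RPKM), followed by Cyp4a14 (83.2 RPKM) and Cyp4a12a (62.7 RPKM), each overlapping the next, and then by Cyp4a12b, Cyp4a32 and Cyp4a31, each apart from the one before. In female WT mice Cyp4a14 (384 RPKM) overlapped Cyp4a10 (241 RPKM), and both lay apart from Cyp4a32 (12.9 RPKM), which lay apart from Cyp4a31 (3.68 RPKM). Female SIRT6-tg mice had the same order, with 646 RPKM of Cyp4a14 and 366 RPKM of Cyp4a10. Cyp4a12a and Cyp4a12b came last in both female groups, at medians of 0.172 and 0.0176 RPKM in WT and 0.0472 and 0.0159 RPKM in SIRT6-tg mice.

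**Figure D2:**
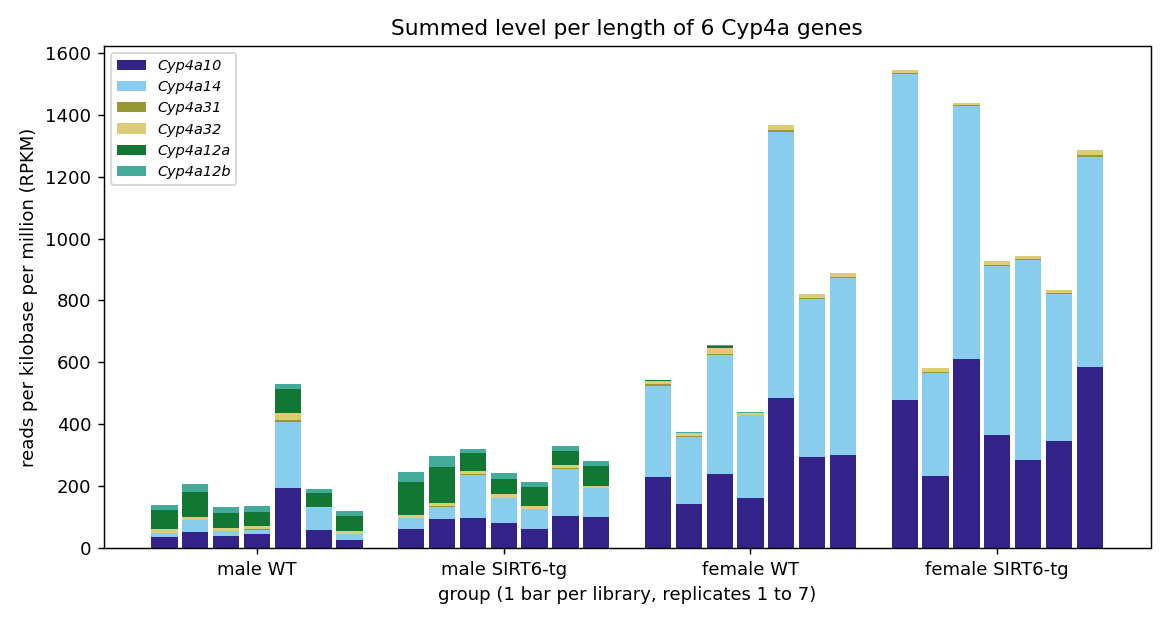
Stacked RPKM of the 6 Cyp4a genes in each of the 28 libraries, with 1 bar per mouse from 0 and 1 colour per gene. The female bars consist almost wholly of Cyp4a14 and Cyp4a10, the male bars also hold Cyp4a12a and Cyp4a12b, and male WT 5 (531 RPKM) is the tallest male bar.

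The sum of the 6 genes was 119, 141 and 531 RPKM as the lowest, median and highest value in male WT, 214, 281 and 329 in male SIRT6-tg, 374, 655.5 and 1366 in female WT, and 582, 942.5 and 1545 in female SIRT6-tg mice. On the TMM scale the 6 male WT libraries other than male WT 5 lay between 119 and 207 RPKM. The lowest male SIRT6-tg library was at 214 RPKM. This narrow gap appears only when male WT 5 is left out, and it was not checked on other scales or against other genes. Cyp4a12a held a median of 37.0% of the sum in male WT, 22.9% in male SIRT6-tg and 0.0393% in female WT mice. Cyp4a14 held 16.4% in male WT, 33.3% in male SIRT6-tg and 61.1% in female WT mice. Both shares overlapped between the male genotypes. Cyp4a12a held 14.2% to 42.3% in male WT and 13.6% to 43.8% in male SIRT6-tg mice. Cyp4a14 held 8.62% to 39.9% and 13.7% to 45.9%.

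In males none of the 6 genes passed the test between SIRT6-tg and WT, compared with 20.7% of all genes tested (9.68% higher and 11% lower). None of the 6 had an unadjusted p under 0.05, and DESeq2 also called 0. In each of the 6 genes the ranges of the groups overlapped, whereas 6.97% of all genes tested did not overlap. Cyp4a10 was measured at 131, 198 and 222 CPM in male SIRT6-tg mice, on the TMM scale all above the 6 lower WT libraries and below male WT 5. Its log2 difference was 0.40 (SE 0.34, 95% interval -0.30 to 1.11, adjusted p = 0.453). Cyp4a14 was measured at 88.2, 216 and 393 CPM, which overlapped WT, with a log2 difference of 0.66 (SE 0.52, 95% interval -0.41 to 1.74, adjusted p = 0.415).

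The result in males turned on 1 library. Male WT 5 held 413 CPM of Cyp4a10 and 551 CPM of Cyp4a14, which is 4.59 and 12.0 times the median of the other 6 WT males. Without it, male WT mice ranged from 53.3 to 121 CPM of Cyp4a10 and on the TMM scale no longer overlapped the SIRT6-tg mice, and both genes passed the test. The log2 difference was then 0.99 for Cyp4a10 (SE 0.25, 95% interval 0.48 to 1.51, adjusted p = 0.00511) and 1.61 for Cyp4a14 (SE 0.43, 95% interval 0.73 to 2.49, adjusted p = 0.00830). These 2 of 6 genes compare with 19.6% of all genes tested without that library, and the 1 gene without overlap compares with 8.46%. With total counts as the scale and without male WT 5 both genes still passed (0.69, adjusted p = 0.0463, and 1.31, adjusted p = 0.0286), and with hepatocyte markers as the scale Cyp4a14 did (1.26, adjusted p = 0.0297) and Cyp4a10 did not (0.62, adjusted p = 0.0685). In the other 27 fits that leave out 1 library neither gene passed. Relative to total counts the Cyp4a10 ranges overlapped even without male WT 5. Male WT 6 held 2867 of 20854228 counts and male SIRT6-tg 1 held 3188 of 25321822.

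**Figure D3:**
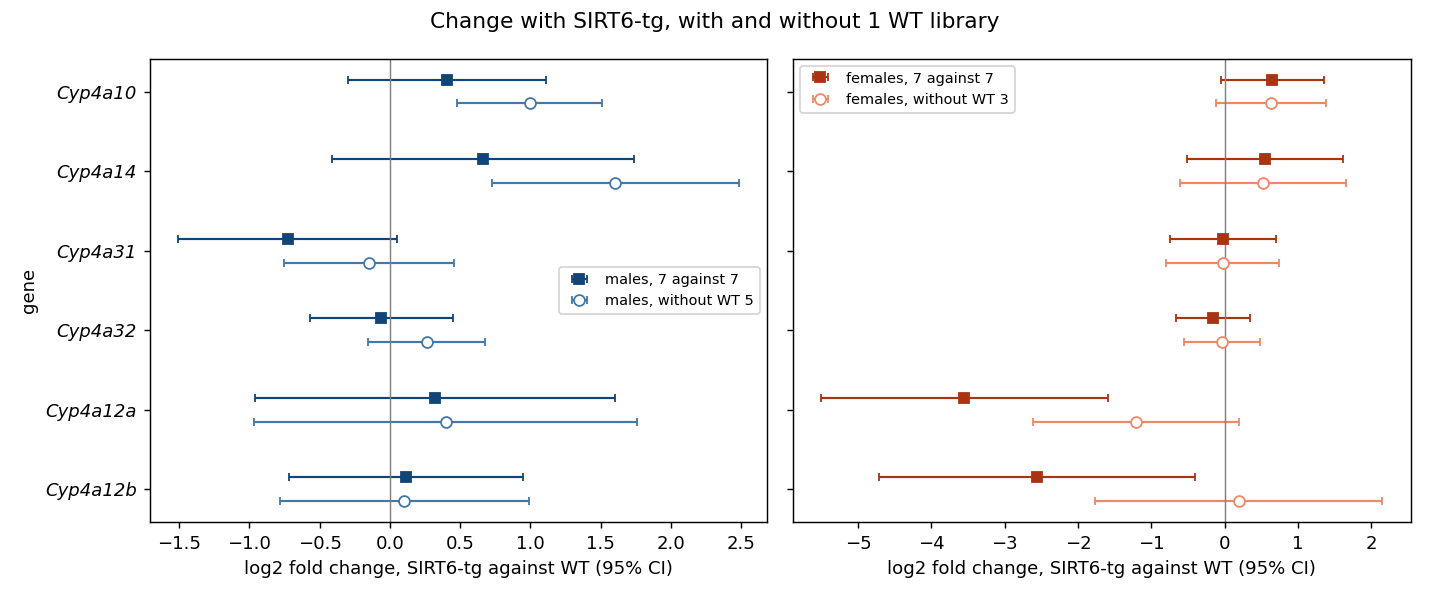
Log2 fold change of SIRT6-tg against WT with its 95% interval (edgeR) for the 6 Cyp4a genes, in males on the left with 7 WT libraries and without male WT 5, and in females on the right with 7 WT libraries and without female WT 3. Without male WT 5 the intervals of Cyp4a10 and Cyp4a14 lie above 0, and without female WT 3 the interval of Cyp4a12a reaches across 0.

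The other 4 genes gave no call in males. Cyp4a31 was measured at 1.59, 2.06 and 3.59 CPM in male SIRT6-tg mice, with a log2 difference of -0.73 (SE 0.38, 95% interval -1.51 to 0.05, adjusted p = 0.187) that was -0.15 without male WT 5. Cyp4a32 lay at 11.3 to 19 CPM, with a difference of -0.06 (SE 0.25) that was 0.26 without male WT 5. Cyp4a12a was measured at 108, 152 and 277 CPM, a difference of 0.32 (SE 0.62, 95% interval -0.96 to 1.60). Cyp4a12b was measured at 30.6, 36 and 90.0 CPM, a difference of 0.12 (SE 0.40) that turned to -0.16 with total counts and -0.22 with hepatocyte markers as the scale.

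Other measures moved with genotype in the male livers. T cell markers summed to 17.3 to 52.8 CPM in male WT and 5.51 to 8.46 CPM in male SIRT6-tg mice, and macrophage and Kupffer cell markers to 311 to 954 and 254 to 428 CPM, with none of the 9 and 7 markers at 0 in every library. In bulk liver, fewer cells of a type and less RNA per cell cannot be told apart. TMM factors were 1.06 to 1.17 in male WT and 0.821 to 0.993 in male SIRT6-tg libraries. The choice of scale moved the median log2 difference of all genes in males from 0.06 with TMM to -0.22 with total counts and -0.27 with hepatocyte markers. It moved the share of calls that were higher from 46.8% to 4.89% and 2.98%, with 35.7% under relative log expression (RLE) factors, 26.2% under upper-quartile scaling and 40.5% under DESeq2. The part of these measures in the Cyp4a values was not tested.

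In females the transgene was also without a call in the 6 genes, compared with 0.0278% of all genes tested (6 genes, with 1212 at an unadjusted p under 0.05, and 44 genes by DESeq2). Cyp4a10 was measured at 492, 771 and 1289 CPM in female SIRT6-tg mice, overlapping WT, with a log2 difference of 0.65 (SE 0.34, 95% interval -0.06 to 1.35, adjusted p = 0.940). Cyp4a14 was measured at 867, 1679 and 2733 CPM, with a difference of 0.55 (SE 0.52, 95% interval -0.52 to 1.62, adjusted p = 1.00). Cyp4a31 lay at 4.88 to 13.6 CPM and Cyp4a32 at 12.5 to 25.8 CPM, with differences of -0.02 (SE 0.35) and -0.16 (SE 0.25).

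Cyp4a12a was at trace level in females, and its values rest on few reads. Female WT libraries 1 to 7 held 53, 10, 573, 10, 14, 3 and 2 counts, against 1 to 30 counts in the SIRT6-tg libraries. Female SIRT6-tg mice had 0.0364, 0.114 and 1.16 CPM, overlapping WT. The log2 difference was -3.55 (SE 0.95, 95% interval -5.51 to -1.60), with an unadjusted p of 0.000928 and an adjusted p of 0.291 in edgeR's quasi-likelihood test, while DESeq2 called it (-3.51, adjusted p = 0.0181). Without female WT 3, which held 43.7 times the median of the other WT females, the difference was -1.21 (SE 0.68, 95% interval -2.62 to 0.20, adjusted p = 0.988). Cyp4a12b had 0, 4, 67, 3, 0, 0 and 1 counts in the female WT libraries, with a difference of -2.56 (SE 1.05, unadjusted p = 0.0217, adjusted p = 0.742) that turned to 0.19 without female WT 3.

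**Figure D4:**
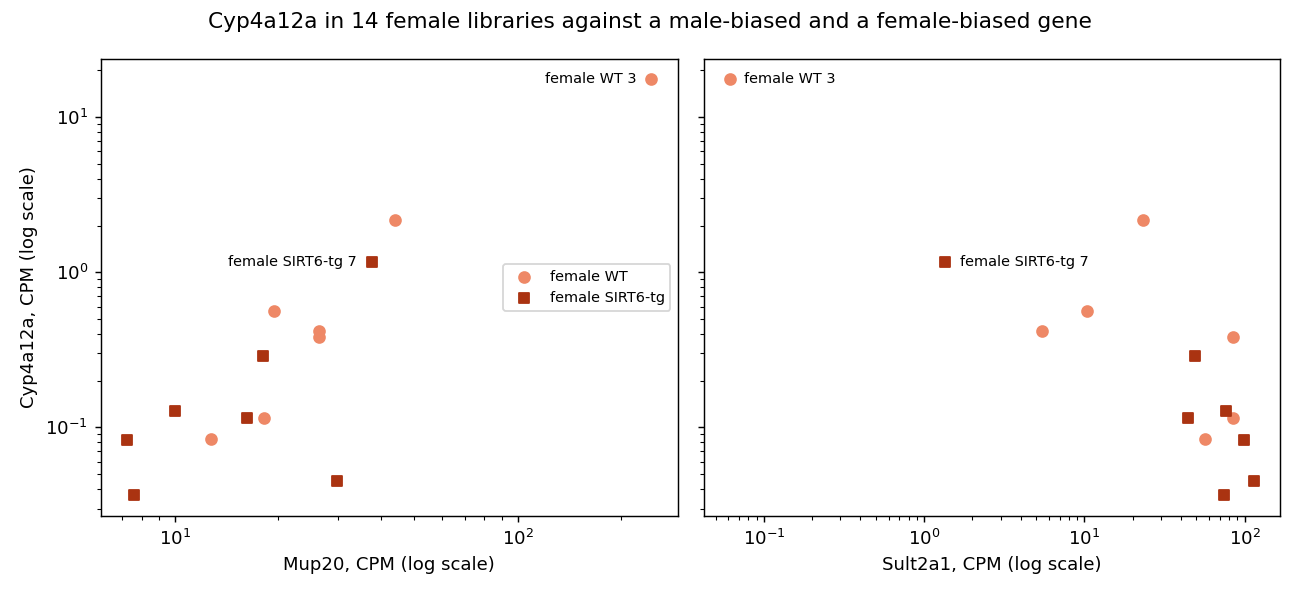
CPM of Cyp4a12a (vertical, log scale) in the 14 female libraries against CPM of Mup20, a male-biased gene (left), and Sult2a1, a female-biased gene (right), both on log scales, with 1 point per mouse. Female WT 3 lies at the highest Cyp4a12a (17.5 CPM), the highest Mup20 (246 CPM) and the lowest Sult2a1 (0.0611 CPM).

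The female library with the most Cyp4a12a also stood apart in some other sex-biased genes, being the highest WT female in 7 of 12 male-biased genes and the lowest in 10 of 14 female-biased genes. Slco1a1 and Cyp7b1 were highest in female WT 4 instead, and Cyp2b9 was lowest in female WT 1. Mup20, a major urinary protein made mainly by males, was at 246 CPM in female WT 3, compared with 44 CPM in the next WT female and 1086 to 2764 CPM in male WT mice. Sult2a1, a sulfotransferase made mainly by females, was at 0.0611 CPM there, compared with 5.47 CPM in the next lowest WT female. Transcripts of 4 Y-linked genes summed to at most 0.292 CPM in any female WT library, compared with 172 to 232 CPM in male WT mice. The female SIRT6-tg library with the most Cyp4a12a, female SIRT6-tg 7 (1.16 CPM, next 0.289 CPM), had 37.5 CPM of Mup20, the highest of its group, and 1.35 CPM of Sult2a1, the lowest. It was highest of its group in 5 of 12 male-biased genes and lowest in 4 of 14 female-biased genes, compared with 10.2% and 16.7% of all genes. These genes were chosen from the sex-biased lists after their values were seen.

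Between males and females the effect of genotype differed for 1 of the 6 genes, compared with 5.04% of all genes tested. Of these calls over all genes, 23.8% were higher in males with TMM, 14.2% with RLE factors, 1.40% with total counts and 0.624% with hepatocyte markers. For Cyp4a12a the effect in males exceeded that in females by 3.87 in log2 (SE 1.15, 95% interval 1.5 to 6.24, adjusted p = 0.0482). This call was lost on each other scale (adjusted p from 0.0511 with total counts to 0.0568 with hepatocyte markers), with no filter on low counts (0.0902) and with the replicate block (0.188), and was kept with DESeq2 (0.0195) and filterByExpr (0.0265). Without female WT 3 the difference was 1.53 (SE 0.78, 95% interval -0.06 to 3.12, adjusted p = 0.291, with 4.54% of all genes tested called), and it passed in 6 of the 28 fits that leave out 1 library (adjusted p from 0.0243 to 0.291). For Cyp4a10 and Cyp4a14 the differences were -0.24 (SE 0.48, adjusted p = 0.848) and 0.11 (SE 0.73, adjusted p = 0.962). Leaving out both male WT 5 and female WT 3 gave 0.37 for Cyp4a10 and 1.61 for Cyp4a12a (adjusted p = 0.285), and no call, compared with 4.97% of all genes tested. Since the rise in Sirt6 was also larger in males (6.68 against 3.39 in log2), sex and Sirt6 level cannot be told apart in these differences.

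Within the groups Cyp4a10, Cyp4a14 and Cyp4a31 varied together. Correlations were computed over all 28 libraries on log2 CPM after removing each group mean, for 15 pairs, with p from 100000 permutations and adjusted over the pairs. Cyp4a10 and Cyp4a14 gave r = 0.84 and rho = 0.80 (permutation p adjusted to 0.00015), and r was 0.70 without the libraries farthest from the median, male WT 5 and female WT 5. Cyp4a10 and Cyp4a31 gave r = 0.82 and rho = 0.79 (adjusted permutation p = 0.00015), and 0.68 without those libraries. Cyp4a14 and Cyp4a31 gave r = 0.73 and rho = 0.62 (adjusted permutation p = 0.00105), and 0.55 without the 2 farthest libraries. In females taken alone all 3 relations passed by r and by rho. In males taken alone all 3 passed by r (adjusted permutation p = 0.0226 to 0.0485). By rho Cyp4a31 did not pass in males, with Cyp4a10 (adjusted permutation p = 0.0619) or with Cyp4a14 (0.176). Without the 2 farthest libraries, male WT 5 among them, r in males was 0.78 for Cyp4a10 and Cyp4a14. It was 0.65 for Cyp4a10 and Cyp4a31, and 0.37 for Cyp4a14 and Cyp4a31. Cyp4a31 and Cyp4a32 gave r = 0.61 (rho = 0.49, adjusted permutation p = 0.0422) and 0.28 without male WT 5 and female WT 4, so this relation rests on those libraries. Cyp4a12a and Cyp4a12b gave r = 0.67 and rho = 0.25, did not pass (adjusted permutation p = 0.0699) and gave 0.13 without female WT 3 and female SIRT6-tg 7. In males alone, where both genes were above trace level, this pair passed by r (0.75, adjusted permutation p = 0.0485). It did not pass there by rho (0.58, adjusted permutation p = 0.176), and r was 0.45 without male SIRT6-tg 2 and male SIRT6-tg 1. Cyp4a10 and Cyp4a12a gave r = 0.05.

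**Figure D5:**
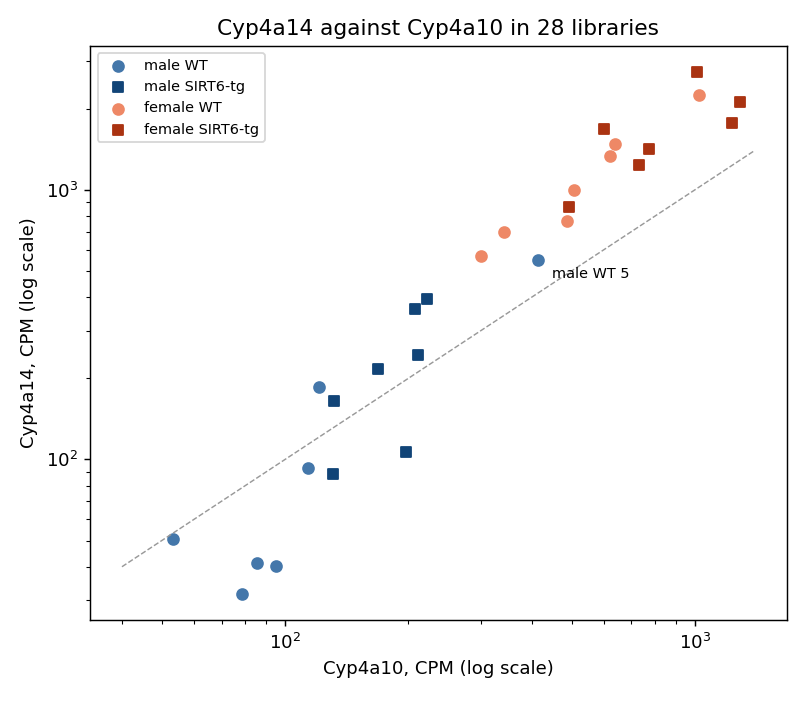
CPM of Cyp4a14 against CPM of Cyp4a10, both on log scales, with 1 point per library (28) coloured by group and a dashed line where both are equal. The points rise together within each group, and every female point lies above the dashed line.

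The other genes of omega-oxidation and of the PPARα pathway were followed in lists in males, where the calls depended on the scale. The lists were chosen with earlier results of these data known, so their counts are a description and not independent evidence. Over all genes tested, 9.68% rose and 11% fell with TMM, 0.973% and 18.9% with total counts, 0.570% and 18.5% with hepatocyte markers, and 8.49% and 11.2% with TMM without male WT 5. The hepatocyte markers themselves moved in males, with 7 of 15 higher and 0 lower in SIRT6-tg mice (median log2 difference 0.36), and their part in the values of the lists was not tested. Of 26 PPARα target genes outside Cyp4, 13 rose and 0 fell in male SIRT6-tg mice (median log2 difference 0.44, compared with 0.06 over all genes), and 12 rose without male WT 5. The 13 of 26 compare with 9.68% of all genes, the 4 that rose with total counts as the scale with 0.973%, and the 3 that rose with hepatocyte markers with 0.570%. The lowest adjusted p values belonged to Retsat, a retinol saturase (1.07, adjusted p = 5.80e-06), Fabp1, the liver fatty acid binding protein (0.82, adjusted p = 6.84e-05), and Cpt2, which releases acyl groups from carnitine in mitochondria (0.52, adjusted p = 9.67e-05). Of 7 genes for PPARα and its partners, 0 passed with edgeR, with DESeq2 and on each other scale, and 1 had an unadjusted p under 0.05. Nr0b2, which encodes the corepressor SHP, had a difference of 0.84 (SE 0.39, adjusted p = 0.138).

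Of 9 alcohol and aldehyde dehydrogenases, which oxidise omega-hydroxy acids further, 6 rose and 1 fell in male SIRT6-tg mice (median 0.47), compared with 9.68% and 11% of all genes. Without male WT 5, 7 rose, but with total counts or hepatocyte markers as the scale 0 rose. Adh5 had a difference of 0.51 (adjusted p = 0.00250), Aldh1a1 0.51 (adjusted p = 0.00294) and Aldh3a2, the fatty aldehyde dehydrogenase, 0.52 (adjusted p = 0.00342). Of 14 genes for peroxisomal chain shortening, 5 rose and 0 fell (median 0.36), compared with the same 9.68% and 11%. Without male WT 5, 7 rose, with RLE factors 3, and with total counts or hepatocyte markers 1. Acaa1b, a peroxisomal thiolase, had a difference of 0.89 (adjusted p = 0.000104), Hsd17b4, the peroxisomal bifunctional enzyme, 0.40 (adjusted p = 0.000887), and Scp2, a sterol carrier with thiolase activity, 0.41 (adjusted p = 0.0106).

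Of 10 other Cyp4 genes tested, 3 rose and 2 fell in males (median 0.24), compared with 9.68% and 11% of all genes, so the 2 that fell are near the share over all genes. With total counts 1 rose and 2 fell, and with hepatocyte markers 0 rose and 2 fell, where 18.9% and 18.5% of all genes fell. Cyp4f13 had a difference of 0.53 (adjusted p = 1.50e-05), Cyp4f16 of -1.13 (adjusted p = 8.90e-05) and Cyp4f18, at 2.35 CPM in male WT and 0.659 CPM in male SIRT6-tg mice on average, of -1.85 (adjusted p = 5.77e-06). Of 5 electron donors to P450 enzymes, Cyb5a (0.43, adjusted p = 0.0231) and Cyb5r3 (0.33, adjusted p = 0.0453) rose, compared with 9.68% of all genes, and with total counts or hepatocyte markers 0 did. Of 9 genes for fatty acid release and uptake, 4 rose and 1 fell (9.68% and 11% of all genes), among them Slc27a2, an acyl-CoA synthetase (0.57, adjusted p = 0.000328), and Lpl, lipoprotein lipase (-1.34, adjusted p = 0.000345). With total counts as the scale 1 of these 9 rose and 2 fell, and with hepatocyte markers 0 rose and 1 fell. Other Cyp4a genes were near 0, with 0 counts of Cyp4a29 and 4 counts of Cyp4a30b summed over all libraries.

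In females 0 genes of each of these lists passed with edgeR or DESeq2. An unadjusted p under 0.05 was found for 9 of the 26 PPARα targets, 5 of 14 genes of peroxisomal chain shortening, 3 of 9 dehydrogenases, and 1 gene each of the other Cyp4 genes and of fatty acid release and uptake, compared with 5.62% of all genes. Their lowest adjusted p values belonged to Aldh3a2 (0.49, adjusted p = 0.246), Retsat (0.54, adjusted p = 0.340), Slc27a2 (0.32, adjusted p = 0.524), Cyp4f16 (-0.53, adjusted p = 0.634) and Acaa1b (0.40, adjusted p = 0.697). Between WT males and females, 15 of the 26 PPARα targets were lower in males and 0 higher (median -0.48), compared with 5.71% lower and 6.66% higher over all genes. On the scale of hepatocyte markers 7 were lower and 6 higher, where 1.10% of all genes were lower and 44.1% higher.

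The genes most like the members were found by Pearson's r of log2 CPM with group means removed, over 28 libraries and among 11117 genes, as a description. Nearest to Cyp4a10 were Hsdl2 (0.78), Cpox (0.74) and Acsl1 (0.74). Nearest to Cyp4a14 were the acyl-CoA thioesterase gene Acot1 (0.80), Retsat (0.71) and Hsdl2 (0.70). Nearest to Cyp4a12a were Mup20 (0.75, rho 0.46), Kctd15 (0.71) and Prss8 (0.68).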

How the data were processed

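The authors extracted RNA with TRI Reagent, prepared NEBNext Ultra libraries, sequenced single ends, aligned reads to mm10 with STAR 2.5.0a and Gencode vM12, kept uniquely mapped reads and counted them per gene with HTSeq. They deposited raw read counts without normalization, 1 column per library, and the strand setting is not given in the sources used here. Columns were matched to samples by name, and 0 were left unmapped. Replicates are separate mice, whose litter and cage are not given in the labels. Symbols, exon lengths and transcripts came from Gencode vM21 on GRCm38.

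The filter kept 21583 genes whose normalized counts averaged 0.5 or more. Counts were scaled by TMM and tested with edgeR 4.0.16 (quasi-likelihood, robust) in R 4.3.3. A single fit held the 28 libraries, without covariates, with Benjamini-Hochberg adjustment and a threshold of 0.05. The fit was tested on simulated data. Correlations used log2 CPM with a prior count of 2 and SciPy 1.17.1. DESeq2 1.42.0, which the authors used, other scales and filters, WT or SIRT6-tg mice alone, a replicate block and each library left out served as alternatives. Fits without male WT 5 on other scales, or without male WT 5 and female WT 3, were chosen after seeing the data. All 6 members are named, with, per list, the 3 genes of lowest adjusted p in males and 1 in females, and the 3 genes most like a member. The members and lists were chosen with earlier results of these data known.

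Totals of 18758863 to 35393069 counts per library set the precision, and limits from counts cover counting error only.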

Additional observations from a re-analysis of the deposited data

Results flagged for a closer look

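In groups of 7 libraries a lone highest or lowest value was looked for by Dixon's ratio of gap to range, on CPM without logs. In 24 groups of values 7 exceeded its 95% critical value. Chance gives about 5% only for normally distributed values, which CPM need not be, so the 7 cannot be set against it. The ratio was not taken on log values. In male WT 5, Cyp4a10 was at 413 CPM (next 121), Cyp4a14 at 551 CPM (next 186), Cyp4a31 at 12.3 CPM (next 3.66) and Cyp4a32 at 38.3 CPM (next 19). That library also held 71.8 CPM of Cyp2b9 (next 8.01) and 29.7 CPM of Cyp2a4 (next 21.5), both female-biased P450 genes chosen after their values were seen. It was highest in 7 of 14 female-biased and 0 of 12 male-biased genes, compared with 17.1% of all genes, and lowest in 1 and 5 of them, compared with 25.0%. In female WT 3, Cyp4a12a was at 17.5 CPM (next 2.17) and Cyp4a12b at 2.05 CPM (next 0.154). In female SIRT6-tg 7, Cyp4a12a was at 1.16 CPM (next 0.289). These 4, 2 and 1 values come from 3 mice and are not independent of each other.

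The effect of genotype on Cyp4a12a differed between the sexes in edgeR's test of the difference itself (3.87 in log2, adjusted p = 0.0482), and the call was lost without female WT 3 (0.291), on each other scale, with no filter and with the replicate block. It passed in 6 of the 28 fits that leave out 1 library.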

How the results depend on the processing

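The sex differences of Cyp4a10, Cyp4a14, Cyp4a12a and Cyp4a12b passed in both genotypes in all 28 fits that leave out 1 library and on each scale. That of Cyp4a31 in WT was lost in WT mice alone (adjusted p = 0.139), with total counts (0.0593), with no filter (0.0777) and with hepatocyte markers (0.109). The number of members called in males, 0, became 1 with hepatocyte markers (Cyp4a31, -0.99, adjusted p = 0.0460), 2 without male WT 5 and female WT 3, 2 with total counts and no male WT 5, and 1 with hepatocyte markers and no male WT 5. In females it became 1 with DESeq2, which called 44 genes where edgeR called 6. The single call between the genotype effects became 0 with RLE factors (adjusted p = 0.0521), upper-quartile scaling (0.0526), total counts (0.0511), hepatocyte markers (0.0568), no filter (0.0902) and the replicate block (0.188), and in all 3 fits chosen after seeing the data. Leaving out 1 library gave 0 to 2 calls in males, 0 in females, 0 to 1 between genotype effects, 4 to 5 between WT sexes and 5 between SIRT6-tg sexes.

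Signs turned mostly where differences were near 0. With total counts Cyp4a12b in males was -0.16, and between genotype effects Cyp4a14 was -0.14 and Cyp4a32 -0.17. With hepatocyte markers Cyp4a12b in males was -0.22, Cyp4a31 in females 0.12, Cyp4a14 and Cyp4a32 between genotype effects -0.22 and -0.33, and Cyp4a32 between WT sexes 0.27. With hepatocyte markers and no male WT 5 the values were -0.27 for Cyp4a12b in males, 0.12 for Cyp4a31 in females, -0.085 for Cyp4a32 between effects and 0.023 for Cyp4a32 between WT sexes. With total counts and no male WT 5 they were -0.19 for Cyp4a12b in males and 0.031 for Cyp4a10 between effects. Without both libraries Cyp4a32 in males was 0.26, Cyp4a12b in females 0.19, and Cyp4a10 and Cyp4a12b between effects 0.37 and -0.089. The correlation of Cyp4a31 with Cyp4a12b was -0.03, and 0.035 in males alone. Leaving out 1 library gave ranges across 0 in males for Cyp4a32 (-0.20 to 0.26) and Cyp4a12b (-0.11 to 0.20), and in females for Cyp4a31 (-0.18 to 0.12) and Cyp4a12b (-3.15 to 0.19). It did so between effects for Cyp4a10 (-0.46 to 0.35), Cyp4a14 (-0.14 to 1.06), Cyp4a32 (-0.039 to 0.42) and Cyp4a12b (-0.075 to 3.24), and between SIRT6-tg sexes for Cyp4a32 (-0.17 to 0.019). The cause was not tested.

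The paper reports cages shared by both genotypes and comparisons among littermates, but the labels do not say whether replicate numbers pair the mice. The check of deviations cannot exclude pairing, and litter and cage were not modelled. Over 42 pairs of libraries with the same number the correlation of deviations was -0.345 to 0.328 (median 0.0353), and 3 of 28 libraries correlated best with their own number. In the replicate block Cyp4a32 in males was 0.025 and Cyp4a31 in females 0.057. Few counts limit Cyp4a12a and Cyp4a12b in females.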

Other observations

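Sex-biased liver genes outside the Cyp4a cluster were followed in lists. All 12 male-biased genes were higher in WT males than in WT females (median log2 difference 4.07), compared with 6.66% of all genes. Of the 14 female-biased genes 13 were lower (median -5.76), compared with 5.71% of all genes. Both lists were chosen for this bias with earlier results known, so these counts were largely set in advance. In male SIRT6-tg mice 5 of the 12 male-biased genes rose and 0 fell (median 0.55, compared with 0.06 over all genes, of which 9.68% rose and 11% fell), among them Hsd3b5 (1.41, adjusted p = 0.000285), Ugt2b38 (1.78, adjusted p = 0.000540) and Nudt7, a peroxisomal coenzyme A hydrolase (0.74, adjusted p = 0.000637). With total counts as the scale 4 rose, and with hepatocyte markers 2, compared with 0.973% and 0.570% of all genes. Of the 14 female-biased genes, Cyp2c40 (3.20, adjusted p = 0.000582) and Cyp2b13 (2.12, adjusted p = 0.0380) rose from under 1 CPM in male WT mice, and Cyp2a4 fell (-1.81, adjusted p = 0.0334). Cyp2c40 averaged 0.302 CPM in male WT and 2.63 CPM in male SIRT6-tg mice. Cyp2b13 averaged 0.0222 and 0.101 CPM, where 1 count is 0.0283 to 0.0533 CPM before TMM scaling, so its call rests on few reads. With total counts or hepatocyte markers as the scale 1 of the 14 rose and 1 fell. Over all genes 0.973% rose and 18.9% fell with total counts, and 0.570% and 18.5% with hepatocyte markers. Without male WT 5 the call on Cyp2a4 was lost. In females 2 female-biased genes rose, Cyp3a16 (4.72, adjusted p = 0.0202) and A1bg (3.30, adjusted p = 0.0202), compared with 0.0278% of all genes called in either direction. Cyp3a16 averaged 0.253 CPM in male WT and 0.430 CPM (SD 0.191) in female WT mice, near the floor. In female SIRT6-tg mice it averaged 11.5 CPM with a larger SD of 18.3. A1bg averaged 50.9 CPM (SD 41.6) in female WT and 501 CPM (SD 385) in female SIRT6-tg mice. A1bg was named after its value was seen.

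Other P450 genes of retinoid and eicosanoid metabolism also rose in males, in 5 of 9 cases (median 0.60), compared with 9.68% of all genes. Cyp2j5, an epoxygenase of arachidonic acid, had a difference of 0.60 (adjusted p = 5.76e-06) and Cyp2c37 of 1.19 (adjusted p = 6.35e-05). With total counts as the scale 2 rose and 1 fell, compared with 0.973% and 18.9% of all genes. With hepatocyte markers 1 rose and 1 fell, compared with 0.570% and 18.5%. Of 17 genes of the growth hormone axis, Ghr, the growth hormone receptor (0.44, adjusted p = 0.00303), Igf1 (0.33, adjusted p = 0.00851) and Rarres1 (0.63, adjusted p = 0.0300) rose in males. These 3 of 17 compare with 9.68% of all genes, and the median of the list was 0.08, near the 0.06 over all genes. On the scale of total counts 0 rose and 3 fell, compared with 0.973% and 18.9% of all genes. The 3 that fell are thus near the share over all genes.

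The ratio of Cyp4a14 to Cyp4a10 in RPKM, chosen after the values were seen, had a geometric mean of 0.607 in male WT, 0.898 in male SIRT6-tg, 1.63 in female WT and 1.56 in female SIRT6-tg mice. It was lower in males in WT mice by an exact two-sided permutation test (log2 difference -1.42, p = 0.000583, the smallest that the test can give, adjusted over 5 tests to 0.00291) and in SIRT6-tg mice (-0.80, exact p = 0.00932, adjusted 0.0233). The ratio of SIRT6-tg to WT males did not pass (0.57, exact p = 0.169, adjusted 0.230).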
